A study of Homo sapiens with 8 samples.

Results

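The C/EBP transcription factors are described here in U-937 cells treated with all-trans retinoic acid (ATRA), L-ascorbic acid (LAA) or both. The members were taken by gene symbol, CEBPA, CEBPB, CEBPD, CEBPE, CEBPG and CEBPZ, and all 6 were among the 61125 genes listed. U-937 is a human pro-monocytic leukemia line. The groups were LAA+ATRA (250 µM LAA with 1 µM ATRA), ATRA (1 µM), LAA (250 µM) and vehicle (PBS and DMSO), each for 72 h, with 2 RNA-seq libraries per group and 8 in all. Every group used the same line in the same medium. No label says that replicates came from separate cultures, so the p-values below reflect spread among libraries that may be technical.

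C/EBP proteins of the bZIP class bind DNA as pairs held together by a leucine zipper, so that the mixture of members in a cell sets which pairs can form. In the myeloid lineage CEBPA is needed to commit progenitors to the granulocyte and monocyte fates, CEBPB drives emergency granulopoiesis and macrophage genes, and CEBPE turns on late granule genes in neutrophils. CEBPD is best known from the acute-phase response, and CEBPG has no activation domain of its own and pairs with other bZIP proteins, ATF4 among them. CEBPZ carries the family's name but is not a bZIP protein: it is a CCAAT-binding and nucleolar protein, whose yeast relative works in assembly of the large ribosomal subunit. ATRA acts through retinoic acid receptors and drives differentiation of myeloid leukemia cells, and ascorbate is a cofactor of the TET enzymes that oxidise methylated DNA.

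The promoters of CEBPA, CEBPB, CEBPE and CEBPG are shown because their transcripts were higher or lower with ATRA, and because they differ in the elements next to the start site. Each window runs from 250 bases before to 50 after a RefSeq start site on GRCh38.p14, is written 5′ to 3′ on the gene's own strand, and has matches to the searched motifs in capitals. For CEBPB and CEBPG, which have more than 1 RefSeq start in the table, the downstream start is printed. The CEBPE and CEBPG windows lie inside these genes as GENCODE 29 places them (positions below). The sequence at their GENCODE 29 starts was not searched.
CEBPA (chr19:33302485-33302784, minus strand): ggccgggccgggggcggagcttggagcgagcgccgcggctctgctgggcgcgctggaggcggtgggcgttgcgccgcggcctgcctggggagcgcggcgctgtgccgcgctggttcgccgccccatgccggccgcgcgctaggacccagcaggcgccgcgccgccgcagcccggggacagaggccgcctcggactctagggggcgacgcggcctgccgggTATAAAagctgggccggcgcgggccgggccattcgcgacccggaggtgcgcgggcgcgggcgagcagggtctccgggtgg
CEBPB (chr20:50190580-50190879, plus strand): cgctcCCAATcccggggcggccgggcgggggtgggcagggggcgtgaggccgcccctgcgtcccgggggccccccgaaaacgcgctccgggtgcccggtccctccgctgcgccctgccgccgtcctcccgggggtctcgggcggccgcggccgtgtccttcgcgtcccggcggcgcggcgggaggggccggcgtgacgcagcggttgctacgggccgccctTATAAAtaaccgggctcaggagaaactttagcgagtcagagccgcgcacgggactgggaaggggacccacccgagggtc
CEBPE (chr14:23119206-23119505, minus strand): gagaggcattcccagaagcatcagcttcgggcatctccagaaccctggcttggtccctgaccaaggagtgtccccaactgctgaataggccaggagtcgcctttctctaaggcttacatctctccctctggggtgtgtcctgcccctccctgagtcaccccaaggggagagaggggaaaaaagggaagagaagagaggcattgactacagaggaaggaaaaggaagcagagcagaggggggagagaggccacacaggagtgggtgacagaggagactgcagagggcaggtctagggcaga
CEBPG (chr19:33373863-33374162, plus strand): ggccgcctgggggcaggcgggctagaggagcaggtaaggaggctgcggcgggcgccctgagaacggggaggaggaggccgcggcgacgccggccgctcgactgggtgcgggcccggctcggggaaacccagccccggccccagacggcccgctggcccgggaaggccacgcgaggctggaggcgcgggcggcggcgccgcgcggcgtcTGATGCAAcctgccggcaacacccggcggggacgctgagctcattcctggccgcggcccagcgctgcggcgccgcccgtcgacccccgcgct

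The CEBPA and CEBPB windows each held a TATA box (TATAAA), whose first base lay at -30 in CEBPA and at -29 in CEBPB, counted from the start site. TATAAA was present in 11.5% of the 35116 RefSeq promoter windows. The CEBPB window also held a CCAAT box at -245, a motif found in 34.6% of windows. The CEBPG window held TGATGCAA at -42, a match to the composite element TGATGNAA at which ATF and C/EBP proteins can bind as mixed pairs and which 3.62% of windows hold. No match was found in the CEBPE window, whose GC content of 57.7% was above that of 47.1% of windows, against 80.7% GC and 97.9% of windows for CEBPA. The search covered both strands of 7 motifs, and no matches shown overlapped each other. The others were TTNNGNAA, bound by C/EBP pairs and held by 36.8% of windows, the cyclic AMP element TGACGTCA (1.85%), and the retinoid receptor hexamers AGGTCA (13.8%) and AGTTCA (10.4%). In the other windows, CEBPZ held TGACCT, the reverse of AGGTCA, at -130, the upstream CEBPB start had CCAAT at 3, and the upstream CEBPG start had its reverse, ATTGG, at -85 and -24. A match is a run of letters and not a bound site, and the lack of a match covers only these motifs in these windows.

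On GRCh38 in GENCODE 29, CEBPA lies at chr19:33299934-33302564, CEBPB at chr20:50190734-50192689 and CEBPD at chr8:47736909-47739086, each with a single exon. CEBPE lies at chr14:23117304-23119616 with 2 exons, and CEBPG at chr19:33373330-33382686 with 2 exons, on the chromosome that also carries CEBPA. CEBPZ lies at chr2:37201612-37231713 and has transcripts of up to 16 exons. The CEBPZ gene overlaps CEBPZOS on the opposite strand, and CEBPB overlaps the antisense gene CEBPB-AS1. Strand use in the authors' counting is not stated, so reads from stretches that such neighbours share cannot be told apart here. Whether their exons overlap was not examined. CEBPB-AS1 had 58 estimated counts over all 8 libraries, against 50829 for CEBPB.

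Library totals ran from 18462552 to 24166770 estimated counts, and 14995 genes passed the low-count filter. For the labelled pro-monocytic cell type, 10 of 11 myelomonocytic markers passed the filter, and the monocyte receptor CD14 was at 18 counts over all libraries. Their summed level in CPM (counts per 1000000 counts of a library, after scaling between libraries) was 2460 and 2740 with LAA+ATRA, 2500 and 2430 with ATRA, 1730 and 1780 in the LAA libraries, and 1570 and 1630 in vehicle. Single markers differed in direction. By group mean, CD68 had 484 CPM with ATRA against 64.5 in vehicle, while ANPEP had 206 against 327. With LAA, LYZ had 759 CPM against 473 in vehicle. CD4 (231 against 291), ANPEP (262 against 327) and PTPRC (91.4 against 124) were lower with LAA. None of the 10 tested markers differed between LAA and vehicle at an edgeR adjusted p under 0.05, where 0.0267% of all genes did. MPO had 70 counts over all libraries. Of 12 markers of other lineages 3 passed the filter, and CD3E, MS4A1, HBB, PF4, CDH5 and KRT18 were among those at 0 in all 8 libraries. The summed level of these markers was 97.1 and 106 CPM with LAA+ATRA, 114 and 109 with ATRA, 63.6 and 67.2 with LAA alone, and 66.0 and 68.2 in vehicle. Most of that sum was PECAM1, an adhesion receptor also found on monocytes, at 110 and 103 CPM with ATRA, against 60.5 and 61.3 in vehicle. In bulk RNA, fewer cells of a type and less RNA per cell cannot be told apart.

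With ATRA the C/EBP mixture shifted. CEBPB was 3.91-fold and CEBPE 4.82-fold as high as in vehicle, CEBPA was 1.33-fold as high, and CEBPG and CEBPZ fell to 0.764 and 0.734 of vehicle. CEBPD had almost no counts. The comparison asks what the retinoid alone does to the family. In the edgeR quasi-likelihood test, with Benjamini-Hochberg adjustment over 14995 genes and a call at an adjusted p under 0.05, 3 of the 5 members tested were called higher and 2 lower. Over all genes 21.9% were called higher and 21% lower, so that a called change was common in this comparison.

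CEBPB had 462 and 388 CPM with ATRA, against 107 and 110 CPM in vehicle. Both ATRA libraries lay far above both vehicle libraries. The means were 425 ± 52.6 CPM with ATRA and 109 ± 2.1 CPM in vehicle (SD, n = 2 each), a log2 fold change of 1.97 ± 0.11 (SE), or 3.91-fold, with an edgeR adjusted p of 4.68e-08. CEBPE had 111 and 113 CPM with ATRA, against 23.9 and 22.6 CPM in vehicle. The ATRA libraries did not overlap the vehicle libraries and differed little from each other. Its log2 fold change was 2.27 ± 0.12, or 4.82-fold, with an edgeR adjusted p of 2.41e-08. Both calls held under each of 17 other settings, in which the log2 fold change ran from 1.85 to 2.09 for CEBPB and from 2.07 to 2.31 for CEBPE.

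CEBPA had 647 and 521 CPM with ATRA, against 452 and 427 CPM in vehicle. The lower ATRA library was above the higher vehicle library, and the ATRA libraries lay further apart than the vehicle pair. The log2 fold change was 0.41 ± 0.13 (SE, n = 2 each), with an edgeR adjusted p of 0.0217. Without ATRA replicate 1 it was 0.26 with an edgeR adjusted p of 0.138, and the call was also lost without vehicle replicate 1 (0.45, adjusted p = 0.0766) or vehicle replicate 2 (0.37, adjusted p = 0.142).

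CEBPG, the partner without an activation domain, had 71.2 and 78.6 CPM with ATRA, against 101 and 95.5 CPM in vehicle. Both ATRA libraries lay below both vehicle libraries. Its log2 fold change was -0.39 ± 0.10 (SE, n = 2 each), with an edgeR adjusted p of 0.00793. The call was lost without vehicle replicate 1 (-0.35, edgeR adjusted p = 0.0819) and without ATRA replicate 1 (-0.31, adjusted p = 0.0525). CEBPZ, the nucleolar member, had 70.3 and 70.6 CPM with ATRA, against 95.9 and 96 CPM in vehicle. The pairs were tight and well apart, with a log2 fold change of -0.45 ± 0.10 and an edgeR adjusted p of 0.00423. CEBPZOS, which overlaps CEBPZ on the other strand, had 54.2 and 63 CPM with ATRA, against 58.4 and 62.7 CPM in vehicle, and these libraries overlapped (log2 fold change -0.05, edgeR adjusted p = 0.767; 0.13 on log2(FPKM + 1)).

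CEBPD had 0 and 0 counts with LAA+ATRA, 0 and 3 with ATRA, 0 and 5 with LAA alone, and 0 and 0 in vehicle. It did not pass the low-count filter, and no fold is given. A count of 0 of 19646442 in vehicle replicate 1 allows a level of up to 0.144 CPM, with 3 counts as the limit and counting error alone considered.

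**Figure D1:**
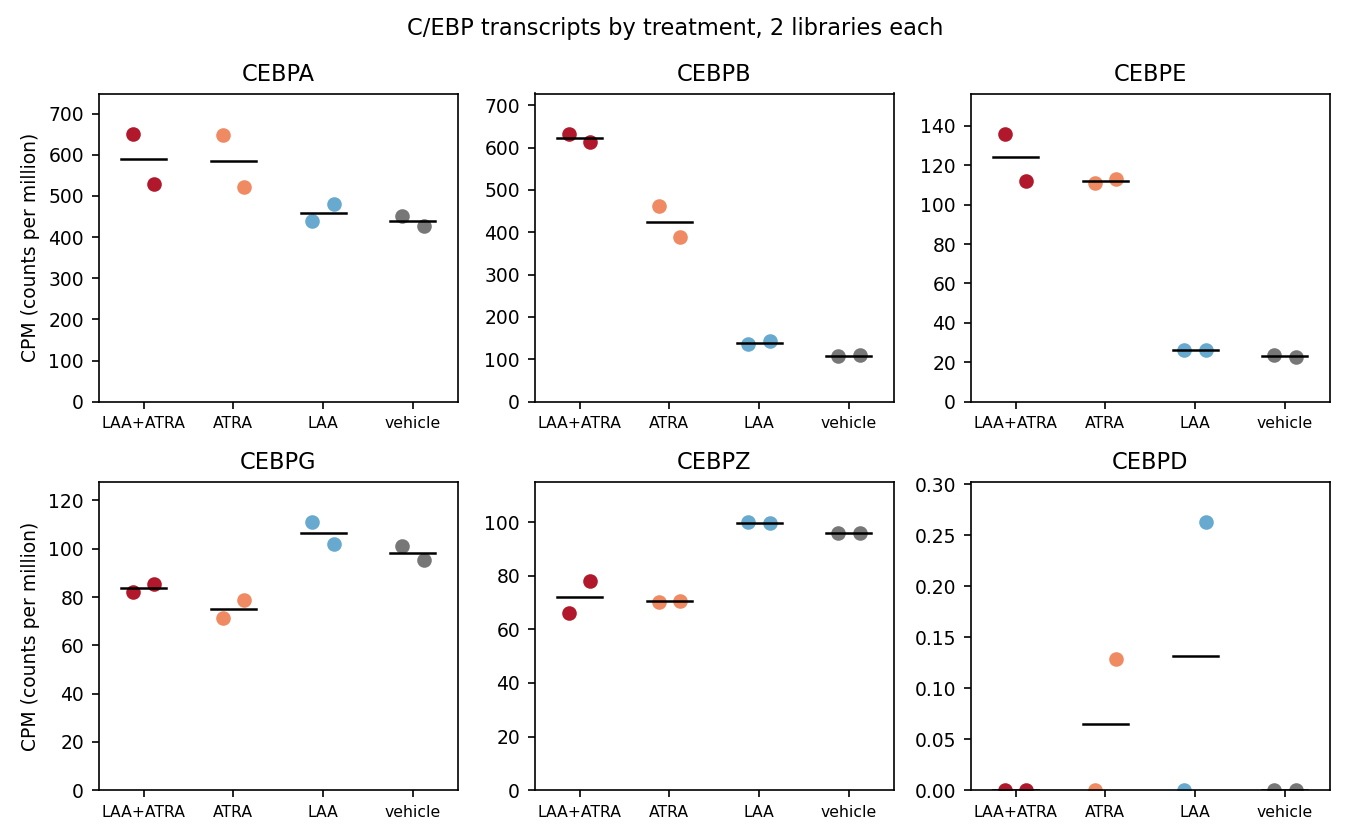
Level of each C/EBP transcript (vertical axis, CPM, linear from 0, a separate scale in each panel) in the 2 libraries of each group (points), with the group mean as a line. CEBPB and CEBPE are high in the 4 libraries with ATRA, CEBPG and CEBPZ are lower there, and CEBPD has counts in only 2 of 8 libraries.

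With LAA alone no C/EBP member was called. CEBPB had 136 and 143 CPM with LAA, against 107 and 110 CPM in vehicle. The LAA libraries lay above the vehicle libraries by more than the gap within either pair, at a log2 fold change of 0.36 ± 0.11 (SE, n = 2 each), or 1.28-fold, with an edgeR p of 0.00538 before adjustment and an adjusted p of 0.108. Of all genes 0.0267% were called in this comparison, 4 of 14995, while 2833 had an unadjusted p under 0.05, and DESeq2 called 703. CEBPB was among the genes called by DESeq2 (0.35, adjusted p = 0.0207) and by edgeR on the LAA and vehicle libraries alone (0.36, adjusted p = 0.00422).

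CEBPA had 438 and 481 CPM with LAA, against 452 and 427 CPM in vehicle, and the pairs overlapped. CEBPE had 26.1 and 26 CPM with LAA, against 23.9 and 22.6 CPM in vehicle, CEBPG had 111 and 102 against 101 and 95.5 CPM, and CEBPZ had 100 and 99.7 against 95.9 and 96 CPM. The LAA libraries were the higher pair for these 3, at differences of 0.16 for CEBPE, 0.12 for CEBPG and 0.06 for CEBPZ on the log2 scale, with edgeR adjusted p from 0.496 to 0.82. The 95% interval of the CEBPA difference ran from -0.21 to 0.34 and that of CEBPE from -0.09 to 0.42, so that changes of that size were not resolved with 2 libraries per group.

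When LAA was added to ATRA, CEBPB was the member that rose further. It had 633 and 614 CPM with LAA+ATRA, against 462 and 388 CPM with ATRA alone, and the pairs did not overlap. The log2 fold change was 0.55 ± 0.10 (SE, n = 2 each), or 1.47-fold with a 95% interval from 0.33 to 0.78 on the log2 scale, and the edgeR adjusted p was 0.0402. CEBPB was the 1 member called of 5 tested, against 1.01% of all genes (74 higher and 78 lower, or 86 higher and 150 lower with offsets for transcript length and GC content). The adjusted p lay just under the threshold. It was from 0.0551 to 0.0891 when any library but ATRA replicate 1 was left out, with a log2 fold change of 0.43 without ATRA replicate 2 and of 0.68, adjusted p = 0.0147, without ATRA replicate 1. It was 2.94e-05 with DESeq2, 0.192 with edgeR on the LAA+ATRA and ATRA libraries alone, and 0.0837 with limma on log2(FPKM + 1).

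The size of this result changed with a correction for transcript composition. With per-library offsets fitted to transcript length and GC content together, the CEBPB difference between LAA+ATRA and ATRA was 0.29 with an edgeR adjusted p of 0.0736, and that between LAA and vehicle was 0.13. CEBPA had -0.19 in LAA+ATRA against ATRA and -0.10 in LAA against vehicle with the offsets, against 0.02 and 0.06 without them. CEBPE had -0.09 in LAA+ATRA against ATRA and -0.08 in LAA against vehicle. The longest transcripts of these members are rich in GC, with 66.2% for CEBPB, 65.9% for CEBPA and 62.9% for CEBPE, against a median of 49.2% over the genes tested. Length and GC content were not separated, and their part in the result was not tested.

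None of the other members was called in LAA+ATRA against ATRA. CEBPA had 651 and 530 CPM with LAA+ATRA, against 647 and 521 CPM with ATRA (log2 fold change 0.02, 95% interval from -0.26 to 0.30, edgeR adjusted p = 0.971). CEBPE had 136 and 112 CPM with LAA+ATRA, against 111 and 113 CPM with ATRA (0.15, from -0.09 to 0.38, adjusted p = 0.51), and its pairs overlapped. CEBPG had 82 and 85.5 CPM with LAA+ATRA, against 71.2 and 78.6 CPM with ATRA (0.16, from -0.06 to 0.38, adjusted p = 0.426), and both LAA+ATRA libraries lay above both ATRA libraries. CEBPZ had 66 and 78.2 CPM with LAA+ATRA, against 70.3 and 70.6 CPM with ATRA (0.03, from -0.19 to 0.26, adjusted p = 0.901). On log2(FPKM + 1) the CEBPZ difference was 0.31, not called by limma either (adjusted p = 0.225).

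The effect of ATRA in the presence of LAA had the same directions. LAA+ATRA against LAA gave 3 members called higher and 2 lower, where 18.4% of all genes were called higher and 18% lower. CEBPB, at 633 and 614 CPM with LAA+ATRA against 136 and 143 CPM with LAA, was 4.47-fold as high (log2 fold change 2.16, edgeR adjusted p = 3.19e-08). CEBPE, at 136 and 112 CPM with LAA+ATRA against 26.1 and 26 CPM with LAA, was 4.76-fold as high (2.25, adjusted p = 3.59e-08). CEBPA rose by 0.36 (edgeR adjusted p = 0.0443) and lost the call without vehicle replicate 1 or 2, LAA replicate 1 or 2, or LAA+ATRA replicate 1, with adjusted p from 0.0721 to 0.243 and a log2 fold change of 0.22 without LAA+ATRA replicate 1. CEBPG had a log2 fold change of -0.35 (edgeR adjusted p = 0.0165), which missed the threshold when LAA replicate 1 (0.151) or LAA+ATRA replicate 1 (0.0876) was left out. CEBPZ had one of -0.47 (adjusted p = 0.00382).

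LAA+ATRA against vehicle shares its libraries with the comparisons above and is given for the size of the whole change. It called 3 members higher and 1 lower, where 23.1% of all genes were called higher and 21.5% lower. CEBPB was 5.73-fold as high as in vehicle (log2 fold change 2.52 ± 0.11, edgeR adjusted p = 1.05e-08), and CEBPE 5.33-fold (2.41 ± 0.12, adjusted p = 1.82e-08). CEBPA had a log2 fold change of 0.43 ± 0.13 (edgeR adjusted p = 0.0173), which was 0.13 with length and GC offsets (adjusted p = 0.231) and 0.27 without LAA+ATRA replicate 1 (adjusted p = 0.128), and lost its call without either vehicle library (adjusted p = 0.0669 without replicate 1 and 0.12 without replicate 2). CEBPZ had -0.41 ± 0.10 (edgeR adjusted p = 0.00667), and -0.29 without LAA+ATRA replicate 1 (adjusted p = 0.0557). CEBPG, at -0.23 ± 0.10 with a 95% interval from -0.45 to -0.01, was not called (edgeR adjusted p = 0.0843), and its value was -0.09 with the offsets.

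Whether the pair of compounds did more or less than the sum of the single effects was tested by the interaction term, which sets the LAA+ATRA change from vehicle (log2) against the ATRA change plus the LAA change. No C/EBP member was called, against 0.00667% of all genes, or 1 of 14995. At an unadjusted p under 0.05 there were 747 genes, and DESeq2 called 13. The interaction was 0.19 ± 0.15 for CEBPB (SE, n = 2 each), with a 95% interval from -0.13 to 0.52 and an edgeR adjusted p of 0.986. For CEBPA, CEBPE, CEBPG and CEBPZ it lay between -0.05 and 0.04. The rise of CEBPB that LAA gave with ATRA was thus not shown to differ from that without ATRA.

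**Figure D2:**
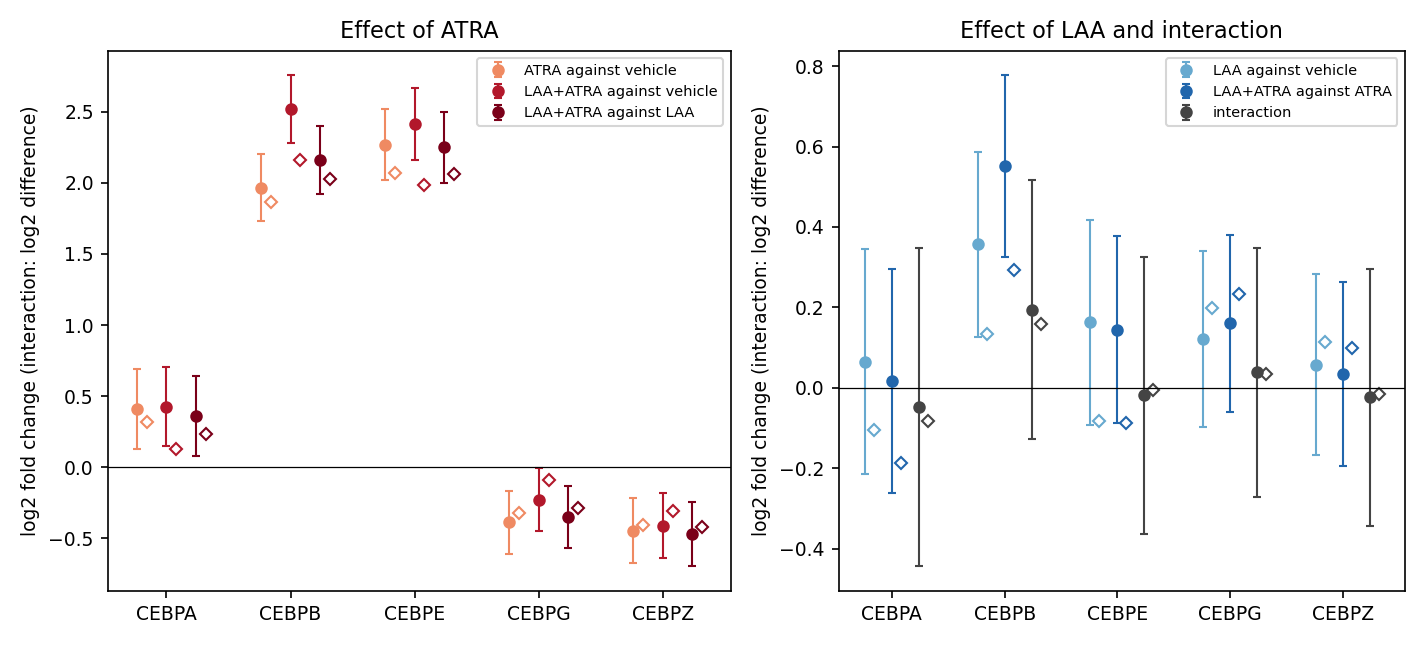
Log2 fold change (vertical axis) of the 5 tested C/EBP members in the comparisons with and without ATRA (left) and with and without LAA, together with the interaction (right); filled circles are the edgeR estimates with their 95% intervals, and open diamonds the estimates with length and GC offsets. CEBPB stands at 0.55 in LAA+ATRA against ATRA, and at 0.29 with the offsets.

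Levels between genes were compared per length, in FPKM as the authors deposited them. In vehicle CEBPA was the most abundant member, at 183 and 176 FPKM, and CEBPB followed at 63.6 and 66.8 FPKM. CEBPZ had 51.0 and 61.6 FPKM, CEBPG 30.3 and 28.8 and CEBPE 29.6 and 28.4 in vehicle. CEBPG and CEBPE overlapped in that order, and CEBPZ lay below CEBPB in each library. With LAA the first places were the same, at 184 and 193 FPKM for CEBPA and 85.3 and 84.0 for CEBPB.

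With ATRA the order at the top was different. CEBPB had 268 and 271 FPKM and CEBPA 259 and 238 FPKM, and with LAA+ATRA CEBPB had 367 and 392 FPKM and CEBPA 259 and 229 FPKM. CEBPE came next, at 166 and 158 FPKM with LAA+ATRA and 130 and 156 FPKM with ATRA. CEBPZ, at 47.1 and 50.3 FPKM with LAA+ATRA and 41.5 and 36.9 with ATRA, and CEBPG, at 25.7 and 25.8 FPKM and at 22.9 and 24.1 FPKM, were the lowest of the 5. Among genes above 0, CEBPB ranked 379 of 21460 by mean FPKM with LAA+ATRA, 473 of 21322 with ATRA, 1455 of 21329 with LAA and 1746 of 21319 in vehicle. CEBPE ranked 855 with LAA+ATRA, 898 with ATRA, 3301 with LAA and 3532 in vehicle.

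The FPKM of CEBPB divided by that of CEBPA was 1.42 and 1.71 with LAA+ATRA, 1.04 and 1.13 with ATRA, 0.463 and 0.435 with LAA alone, and 0.347 and 0.38 in vehicle. These 4 pairs did not overlap, and the ratio was above 1 in the 4 libraries with ATRA and below 1 in the 4 without it. With 2 libraries per group an exact permutation test between any 2 groups cannot fall below a two-sided p of 0.333, and none is given. The summed FPKM of the family was 865 and 855 with LAA+ATRA, 722 and 726 with ATRA, 397 and 402 with LAA alone, and 358 and 361 in vehicle. CEBPA made up 28.4% of the sum with LAA+ATRA, 34.4% with ATRA, 47.3% with LAA and 49.9% in vehicle. CEBPB made up 44.1% with LAA+ATRA, 37.2% with ATRA, 21.2% with LAA and 18.1% in vehicle. CEBPE made up 18.9% with LAA+ATRA, 19.8% with ATRA, 8.02% with LAA and 8.07% in vehicle. The sum includes CEBPZ, which is not a bZIP protein. CEBPZ made up 5.66% with LAA+ATRA, 5.41% with ATRA, 15.1% with LAA and 15.7% in vehicle. The shares are thus not those among the bZIP members alone.

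**Figure D3:**
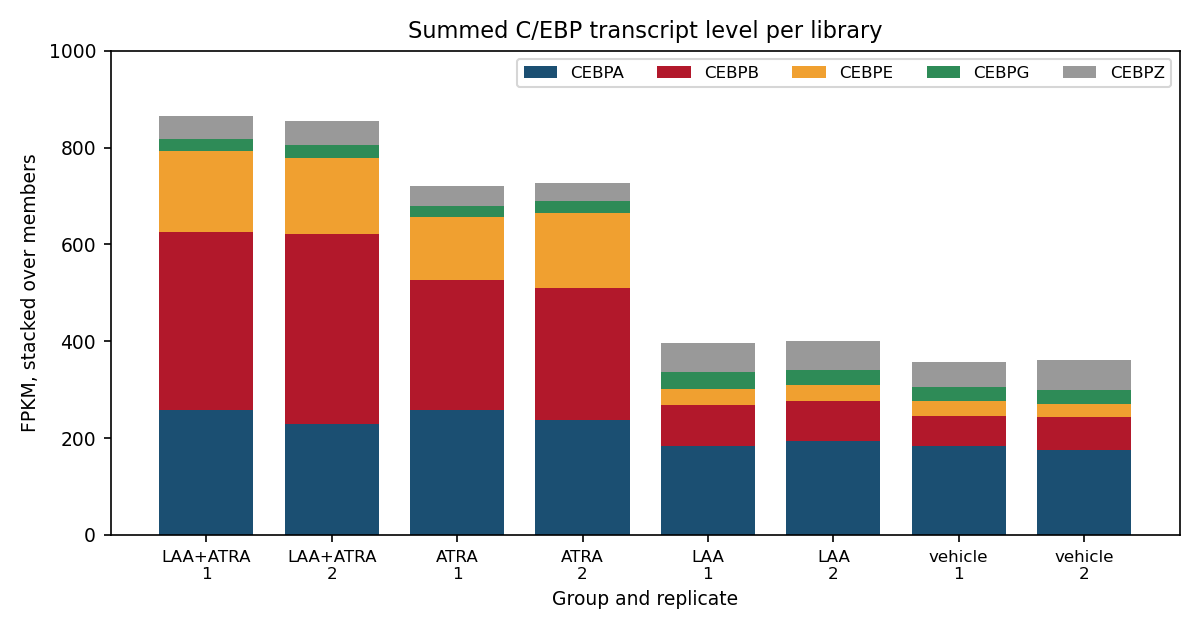
FPKM of the C/EBP members stacked in each of the 8 libraries (vertical axis, linear from 0), CEBPD being too low to show. The sum is from 722 to 865 in the 4 libraries with ATRA and from 358 to 402 in the 4 without it, and the CEBPB band is the widest with LAA+ATRA.

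CEBPZ differed between the count and FPKM scales. Its counts in vehicle were 1992 and 1979, but its FPKM was 51.0 and 61.6. Scaling of FPKM by library totals is assumed here, as the authors' scaling is not stated. It gives a gene length of 1990 bases in replicate 1 and 1650 bases in replicate 2. With LAA+ATRA the corresponding lengths were 1300 and 1490 bases. Other members also shifted. With ATRA the lengths were 1680 and 1380 bases for CEBPB, against 1780 and 1740 in vehicle. CEBPA had 2440 and 2090 with ATRA against 2610 and 2560 in vehicle, and CEBPE 831 and 695 against 853 and 838. Those of CEBPG were 3020 and 3120 bases with ATRA, against 3520 and 3490 in vehicle. The levels, sums and shares in FPKM above carry these shifts. The CEBPB change with ATRA exceeded that of CEBPA by 1.556 (log2) on counts and by 1.563 on log2(FPKM + 1). On log2(FPKM + 1) CEBPZ fell in limma with ATRA alone, while its log2 fold change was -0.20 in LAA+ATRA against vehicle (limma adjusted p = 0.194) and -0.30 in LAA+ATRA against LAA (adjusted p = 0.0802).

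The genes whose log2 CPM followed each member most closely over the 8 libraries were named by the smallest root mean square difference after centring, among 13197 tested genes with a symbol. For CEBPB these were PRTN3, the neutrophil protease 3, at 0.129, LTB4R, a leukotriene B4 receptor, at 0.133, and IGFBP6 at 0.152 on the log2 scale. PRTN3 had 2480 and 2580 CPM with LAA+ATRA, 2160 and 2030 with ATRA, 618 and 601 with LAA alone, and 494 and 551 in vehicle. For CEBPE they included IFI6 at 0.061 and the tetraspanin CD82 at 0.075, and for CEBPA they were RPS6KA4 at 0.0402, BTBD6 at 0.0481 and SIN3B at 0.0573. For CEBPG they were MORF4L2 at 0.0405, RBBP7 at 0.0466 and COPS8 at 0.0504, and for CEBPZ RPL7L1 at 0.0369, SRPK1 at 0.0416 and the RNA helicase DDX47 at 0.0484. Between members, CEBPG and CEBPZ differed by 0.096, CEBPB and CEBPE by 0.212, and CEBPA and CEBPB by 0.871. All these profiles share the same 8 libraries and the split between libraries with and without ATRA, and are given as a description.

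Among genes that control C/EBP factors, those called with ATRA lay in both directions. Of 15 such genes tested, 6 were called higher and 4 lower, with a median log2 fold change of 0.08, against -0.004 for all genes, of which 21.9% were called higher and 21% lower. The share called lower was close to that background. TRIB1 and TRIB2 encode pseudokinases that bring C/EBPα to the ubiquitin ligase COP1, and they moved in opposite directions. TRIB1 had 11.3 and 10.7 CPM with ATRA, against 0.578 and 0.437 CPM in vehicle, or 21.7-fold (edgeR adjusted p = 6.45e-08). TRIB2 had 3.82 and 3.71 CPM with ATRA, against 17.7 and 16.3 CPM in vehicle (log2 fold change -2.18, edgeR adjusted p = 1.09e-06). MYC, which represses CEBPA and is repressed by it, had 75.7 and 69.9 CPM with ATRA, against 390 and 361 CPM in vehicle (-2.37, adjusted p = 1.11e-08). ID1, an inhibitor of helix-loop-helix factors, was 14.3-fold as high with ATRA, at 54 and 57.4 CPM against 3.75 and 4.03 CPM in vehicle. SPI1 (PU.1), which binds many myeloid enhancers together with CEBPA, had 326 and 302 CPM with ATRA, against 149 and 157 CPM in vehicle (1.04, edgeR adjusted p = 9.68e-06).

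Among 14 bZIP relatives and partners, 4 were called higher with ATRA and 5 lower, with a median of -0.10. Over all genes 21.9% were called higher and 21% lower, and with so few genes nothing is read from the counts. ATF4, a partner of C/EBP proteins at composite elements, had 149 and 171 CPM with ATRA, against 344 and 363 CPM in vehicle (log2 fold change -1.14, edgeR adjusted p = 2.95e-06). BATF3, an AP-1 family factor known from dendritic cells, had 4.98 and 4.83 CPM with ATRA, against 13.6 and 13.9 CPM in vehicle (-1.49, adjusted p = 1.09e-05). The AP-1 subunit JUNB was 1.77-fold and the ATF4 relative ATF5 1.64-fold as high with ATRA. DDIT3 (CHOP), a C/EBP-related inhibitor outside the 6 members that is mentioned after its values were seen, had 12.6 and 17.7 CPM with ATRA, against 11.8 and 10.6 CPM in vehicle, and was not called (0.43, edgeR adjusted p = 0.0633; 0.67, adjusted p = 0.00775, without ATRA replicate 1). BATF3 was the only gene of the 7 C/EBP-linked lists called in LAA+ATRA against ATRA, at 8.28 and 9.4 CPM with LAA+ATRA against 4.98 and 4.83 CPM with ATRA (0.85, edgeR adjusted p = 0.0388), and that call was lost in each of the 8 fits that left out a library.

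Early myeloid genes known as C/EBP targets were called higher with ATRA in 9 of 13 cases and lower in 1, with a median log2 fold change of 1.04. Over all genes 21.9% were called higher and 21% lower. KLF4 had 3.04 and 2.03 CPM with ATRA, against 5.39 and 4.61 CPM in vehicle. IL6R, at 217 and 207 against 216 and 194 CPM, overlapped vehicle, and MPO had 70 counts over all 8 libraries. ITGAM, the integrin chain CD11b, had 154 and 122 CPM with ATRA, against 10.2 and 11.5 CPM in vehicle, or 12.7-fold (edgeR adjusted p = 5.15e-09). The azurophil granule proteases PRTN3 and ELANE were 4.01-fold and 2.18-fold as high with ATRA. CSF3R, the receptor for granulocyte colony-stimulating factor, was 3.52-fold as high, at 384 and 316 CPM with ATRA against 96.1 and 103 CPM in vehicle.

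The late granule genes that CEBPE is known to control were for the most part very low. MS4A3 was the highest of those listed, at 71.3 and 111 CPM with ATRA, against 64.6 and 60.7 CPM in vehicle. It had 108 and 114 CPM with LAA+ATRA, and 91.5 and 77.1 CPM with LAA alone. Of 14 listed 6 passed the filter, of which 5 were called higher and 1 lower with ATRA. Over all genes 21.9% were called higher and 21% lower. Several of the 6 reached the filter only through the groups in which they were high. The count in this list is thus partly fixed by the filter, and nothing is read from it. HP, haptoglobin, had 15.3 and 16.4 CPM with ATRA, against 0.529 and 0.388 CPM in vehicle (34.5-fold, edgeR adjusted p = 5.26e-08). BPI had 14.7 and 14.2 CPM with ATRA, against 0.866 and 1.79 CPM in vehicle, and CAMP, the cathelicidin precursor, 3.59 and 4.75 CPM, against 0.529 and 0.922 CPM. MMP9, gelatinase B, had 0 and 0.129 CPM with ATRA, against 1.73 and 2.81 CPM in vehicle (-4.99, edgeR adjusted p = 0.000526). Its 0.129 CPM is the limit of 3 counts in ATRA replicate 2, so the size of this fall is poorly known. LTF, lactoferrin, the classical secondary granule protein, had 14 counts over all 8 libraries.

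Of 17 inflammatory genes tied to CEBPB and CEBPD, 11 passed the filter, 5 of them called higher with ATRA and 2 lower. Over all genes 21.9% were called higher and 21% lower. The filter can shape the count in this list in the same way, and nothing is read from it. S100A9, which forms calprotectin with S100A8, had 46.5 and 62.7 CPM with ATRA, against 3.56 and 3.3 CPM in vehicle (15.9-fold, edgeR adjusted p = 7.57e-09). ALOX5AP, which serves leukotriene synthesis, was 7.03-fold and S100A8 6.29-fold as high with ATRA. IL1RN, the interleukin-1 receptor antagonist, had 3.65 and 4.01 CPM with ATRA, against 10.8 and 13.3 CPM in vehicle (-1.65, edgeR adjusted p = 2.11e-05). With LAA alone S100A9 had 7.34 and 8.56 CPM, against 3.56 and 3.3 CPM in vehicle, and was not called (1.21, edgeR adjusted p = 0.0509). The adjusted p was from 0.0237 to 0.0426 without any 1 of the ATRA or LAA+ATRA libraries, 0.456 and 0.192 without vehicle replicate 1 or 2, and 0.109 and 0.296 without LAA replicate 1 or 2. It was 5.12e-05 with DESeq2 and 0.00259 with edgeR on the LAA and vehicle libraries alone.

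The genes listed with CEBPG and CEBPZ went mainly the other way. Of 14 stress targets of ATF4, a pairing partner of CEBPG, 9 were called lower with ATRA and 2 higher, with a median of -0.98. Their promoters were not examined for the composite element found at CEBPG, and a link to CEBPG was not tested. Over all genes 21% were called lower and 21.9% higher. Not all targets fell. DDIT4 had 355 and 305 CPM with ATRA, against 90.6 and 124 CPM in vehicle, and SLC7A11 had 18.9 and 19.6 against 9.39 and 11 CPM. The serine synthesis enzymes PSAT1 and PHGDH had log2 fold changes of -2.53 and -1.90 with ATRA (edgeR adjusted p = 4.8e-09 and 4.52e-08). PSAT1 had 29.3 and 30.9 CPM with ATRA, against 180 and 169 CPM in vehicle. CBS, of the transsulfuration pathway, was at -2.73 and MTHFD2, of mitochondrial folate metabolism, at -1.47 on the log2 scale. Of 14 nucleolar and ribosome assembly genes listed with CEBPZ, 12 were called lower with ATRA and 0 higher. Over all genes the shares were the same 21% lower and 21.9% higher. Whether the proteins of these 14 genes bind CEBPZ was not tested. The median log2 fold change of the 14 genes was -0.68, while CEBPZ itself was at -0.45. NPM1, nucleophosmin, had 661 and 782 CPM with ATRA, against 1380 and 1490 CPM in vehicle (-0.99, edgeR adjusted p = 1.82e-05), and the ribosome assembly genes RRP1B, WDR12 and NOC3L were at -1.23, -1.16 and -1.25. WDR12 was not called by limma on log2(FPKM + 1) without a filter (adjusted p = 0.0964).

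With LAA alone, none of the 7 lists had a called gene. In the 5 lists whose analysed genes all passed the filter, the medians ran from -0.05 among the regulators to 0.20 among the bZIP relatives, against 0.01 for all genes. In LAA+ATRA against ATRA these medians ran from -0.06 among the early myeloid targets to 0.16 among the nucleolar genes, against 0.004 for all genes. Beside CEBPB itself, the rise that LAA added to ATRA thus had no called counterpart in these lists other than BATF3.

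**Figure D4:**
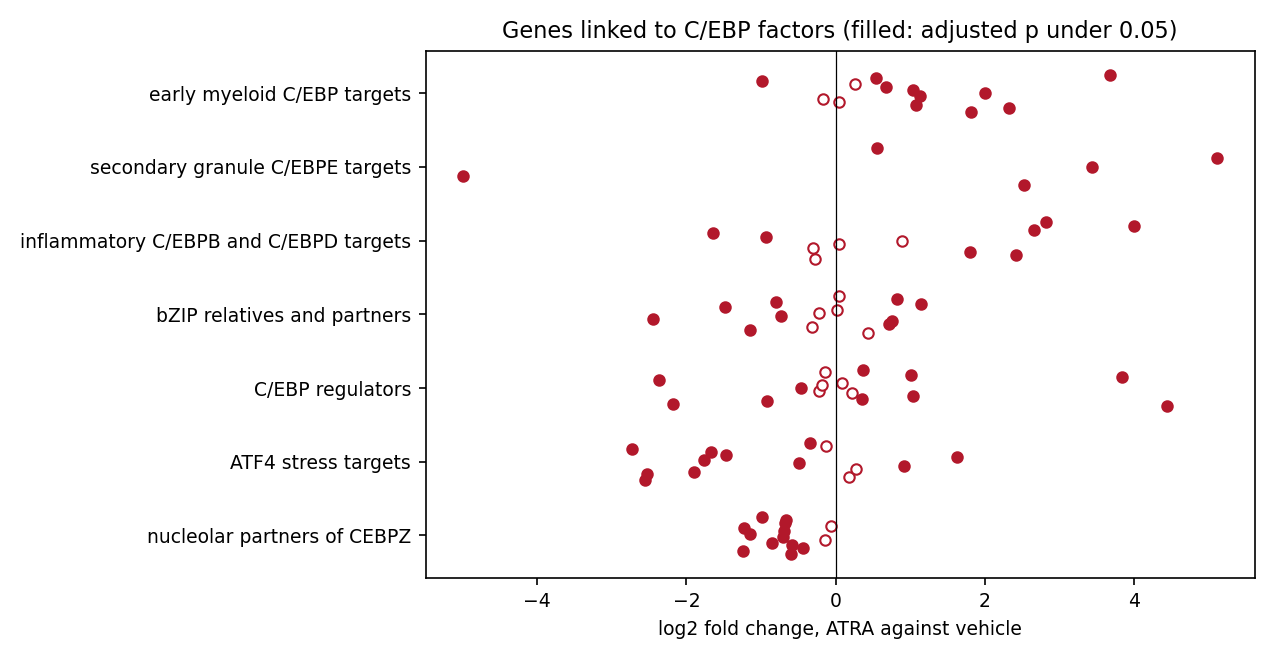
Log2 fold change of ATRA against vehicle (horizontal axis) for each tested gene of 7 lists tied to C/EBP factors; points are genes, spread vertically within a list so that they can be seen, and filled points have an edgeR adjusted p under 0.05. The gene without counts in vehicle is left out. The list labelled nucleolar partners of CEBPZ holds nucleolar and ribosome assembly genes, whose binding to CEBPZ was not tested. Of the nucleolar genes 12 of 14 are filled and lie below 0, and of the early myeloid targets 9 of 13 are filled and lie above 0. Over all genes 21% were called lower and 21.9% higher.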

How the data were processed

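RNA-seq covered 8 U-937 libraries, 2 per group, all at 72 h. Per the labels' protocols, mRNA was enriched with poly-T beads. Salmon 1.8.0 and DESeq2 1.36.0 are named in the submitters' processing notes, with annotation release and strand setting not given in the sources used here. Estimated counts per gene, 16.5% of them with decimals, and FPKM values per gene, of unstated scaling, were deposited by the authors. The members, lists and tests were chosen with earlier results of these data known.

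Counts were rounded, filtered with filterByExpr (14995 of 61125 genes kept) and scaled by TMM in edgeR 4.0.16 under R 4.3.3. The quasi-likelihood model had 4 group means over all 8 libraries, a common dispersion of 0.0124 and 4 residual degrees of freedom. P-values were two-sided and adjusted by Benjamini-Hochberg over all genes of a comparison. The code was tested on simulated data. Named genes were the members, up to 4 called genes of each list by adjusted p or otherwise its 2 most abundant, and the 3 nearest profiles of each member, of which the text gives a part; 1 nearest profile and 1 marker are not reported here. Of the 16 listed regulators 15 were analysed.

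Alternatives were DESeq2 1.42.0, RLE size factors, no filter on low counts, a replicate block, a fit of only the compared groups, limma 3.58.1 on log2(FPKM + 0.1) or log2(FPKM + 1) (genes reaching 1 FPKM), or on the second scale unfiltered, offsets for transcript length and GC content (mgcv 1.9.3, GENCODE 29), and leaving out each library, where a lone library is taken to vary as the other groups do. Promoters came from RefSeq on GRCh38.p14.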

Additional observations from a re-analysis of the deposited data

How the results depend on the processing

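CEBPB and CEBPE kept their calls in each comparison with ATRA against a group without it, under every alternative run. Genes called with limma on log2(FPKM + 1) and no filter were 4163 for ATRA, 4334 for LAA+ATRA and 3352 for LAA+ATRA against LAA, against 6428, 6701 and 5451 with edgeR. For LAA against vehicle, 4 with edgeR, they were 703 (DESeq2), 828 (no low-count filter), 2 (replicate block), 2187 (compared groups alone), 2 (limma on log2(FPKM + 1)), 7 (that with no filter), 15 (length and GC offsets) and 0 to 469 with a library left out. For LAA+ATRA against ATRA, 152 with edgeR, they were 696, 903, 30, 15, 6, 27 and 236 in that order, 4 on log2(FPKM + 0.1), and 6 to 172 with a library left out. Interaction calls were 13 (DESeq2), 136 (no low-count filter), 2 and 3 (limma on log2(FPKM + 1) and log2(FPKM + 0.1)), 10 (no filter), and 1 to 15 with a library left out.

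Deviations of same-numbered libraries correlated between -0.073 and 0.077, so no large effect shared by them was seen. Whether the numbers pair the samples is not settled by this, because counting noise can hide a small shared effect. With the replicate block CEBPB in LAA+ATRA against ATRA was 0.553 (edgeR adjusted p = 0.0696). Its other uncalled values were 0.555 (fit of the compared groups alone), 0.491, 0.493 and 0.491 (limma on log2(FPKM + 1), on log2(FPKM + 0.1), and on log2(FPKM + 1) with no filter) and 0.293 (offsets). In LAA against vehicle it was called at 0.35 (DESeq2) and 0.359 (compared groups alone).

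With offsets CEBPA was 0.128 in LAA+ATRA against vehicle, -0.104 in LAA against vehicle and -0.187 in LAA+ATRA against ATRA, and CEBPE -0.083 and -0.087 in the last 2. On the 3 FPKM scales CEBPA in LAA+ATRA against ATRA was -0.028, -0.029 and -0.028, and the interactions were 0.045, 0.042 and 0.045 for CEBPE, -0.044 on each for CEBPG, and 0.204, 0.209 and 0.204 for CEBPZ. CEBPZ was -0.201, -0.204 and -0.201 in LAA+ATRA against vehicle, and -0.303, -0.308 and -0.303 in LAA+ATRA against LAA. CEBPZOS with ATRA was 0.128, 0.13 and 0.128. The cause was not tested.

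With 1 library left out, CEBPA ran from 0.256 to 0.559 with ATRA, from 0.274 to 0.568 with LAA+ATRA against vehicle, from 0.221 to 0.505 against LAA, from -0.141 to 0.18 against ATRA, from -0.006 to 0.131 with LAA, and from -0.196 to 0.123 in the interaction. In LAA+ATRA against ATRA, CEBPB ran from 0.428 to 0.683, CEBPE from 0 to 0.274 and CEBPZ from -0.094 to 0.147. CEBPG ran from -0.461 to -0.309 with ATRA and from -0.407 to -0.29 in LAA+ATRA against LAA, and CEBPZ from -0.538 to -0.291 in LAA+ATRA against vehicle. Interactions ran from -0.152 to 0.112 for CEBPE, from -0.022 to 0.113 for CEBPG and from -0.15 to 0.101 for CEBPZ. CEBPZOS ran from -0.159 to 0.067 with ATRA. CEBPD, with at most 5 counts in a library, and 8 of the 14 late granule genes did not pass the low-count filter and were not tested.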

Other observations

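CEBPA-DT, the noncoding transcript that starts beside CEBPA on the other strand, was low, with 369 counts over all 8 libraries. It had 2.24 and 3.07 CPM with LAA+ATRA, 1.27 and 1.12 with ATRA, 3.08 and 3.57 with LAA alone, and 1.93 and 2.38 in vehicle. The libraries with LAA lay above those without it both with and without ATRA, at log2 fold changes of 1.16 (LAA+ATRA against ATRA, edgeR adjusted p = 0.117) and 0.63 (LAA against vehicle, adjusted p = 0.336), and neither was called. With ATRA alone it lay below vehicle (-0.85, edgeR adjusted p = 0.0738; -1.06, adjusted p = 0.0284, with length and GC offsets), while CEBPA itself lay above vehicle.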
